A study of Mus musculus with 2 samples.

Results

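Endothelial nuclei of the mouse salivary gland were described in 2 single-nucleus RNA libraries, 1 from Csf2-/- mice (null) and 1 from Csf2+/- mice (control), all aged 20 days and of a strain that the labels write as C56BL/6. Csf2 encodes GM-CSF, a cytokine known mainly for its action on myeloid cells, and the study concerns gland macrophages that depend on it. The control mice also carried a disrupted Csf2 allele, so there was no wild-type library. The sex of the mice, their number per library and the way the allele was made are not given in the sources used here. Nuclei came from whole gland tissue with no selection of a cell type, and the deposited values were counts of unique molecular identifiers (UMIs, which count RNA molecules once each) per gene and barcode.

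The endothelial nuclei were chosen by their own RNA. A barcode was taken as a nucleus if it had at least 1000 UMIs and under 27% of them from 8 secretory genes of the gland (Mucl2, Scgb1b27, Scgb2b27, Prol1, Smgc, Scgb2b26, Pip and Car6), which fill the free RNA of the preparation. A nucleus was a member if at least 4 of 11 endothelial genes, called the rule markers here, had at least 1 UMI. These were Pecam1, Cdh5, Flt1, Kdr, Emcn, Ptprb, Cyyr1, Egfl7, Tek, Plvap and Adgrl4. The rule found 104 members among 13096 null nuclei and 113 among 8384 control nuclei, 217 of 21480 nuclei in all and of 142799 barcodes. With 1 library per genotype there was no replicate check, so no p-value is given, and every interval below covers counting error only.

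Endothelial cells line blood and lymphatic vessels, control what passes between blood and tissue, and differ along the vessel tree. Arterial cells use Notch signalling and elastic matrix, capillary cells carry lipid and other solutes, venous cells take part in leukocyte entry, and lymphatic cells depend on the transcription factor Prox1. Their survival and growth depend on VEGF and angiopoietin signals, read by receptors such as Kdr and Tek. In glands they also supply growth factors to their neighbours, among them Kit ligand and PDGF.

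The libraries held 75630815 UMIs in the null and 76002888 UMIs in the control. Csf2 itself had 0 UMIs in the whole null library and 5 UMIs in the whole control library, too few to check the labels. Whether the null allele could still yield the counted 3' end is not given in the sources used here. The libraries shared 1367 cell barcodes, but no barcode was a member in both. Members had a median of 2104 UMIs and 1202 genes in the null library, against 2545 UMIs and 1405 genes in the control library. The secretory genes took a median of 18.3% of the UMIs of null members and 14.4% of those of control members, close to their median in the other nuclei (19.5% null, 14.8% control). Mitochondrial genes took a median of 0.465% in null members and 0.390% in control members.

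A pair of null members stood apart before any comparison was made. They had 171879 and 32429 UMIs, while no other member exceeded 13374 UMIs in the null library or 9910 UMIs in the control library, and together they held 45.0% of the UMIs of all null members. Their rule markers summed to 227 and 617 CPM (UMIs of a gene scaled to a fixed library total, as counts per 1e+06 UMIs), against medians of 10258 CPM over the other null members and 10133 CPM over control members. The larger had 11 rule markers detected and the smaller 5. Because sums over null members follow these barcodes, gene values below, those of the other nuclei included, are for nuclei under 20000 UMIs, which leaves these members: 102 null with 249207 UMIs and 113 control with 326223 UMIs. That limit was chosen after seeing the data, and medians over all members are given for the lists, with single-gene values where the 2 barcodes bring a gene that was past 2-fold back within it.

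**Figure D1:**
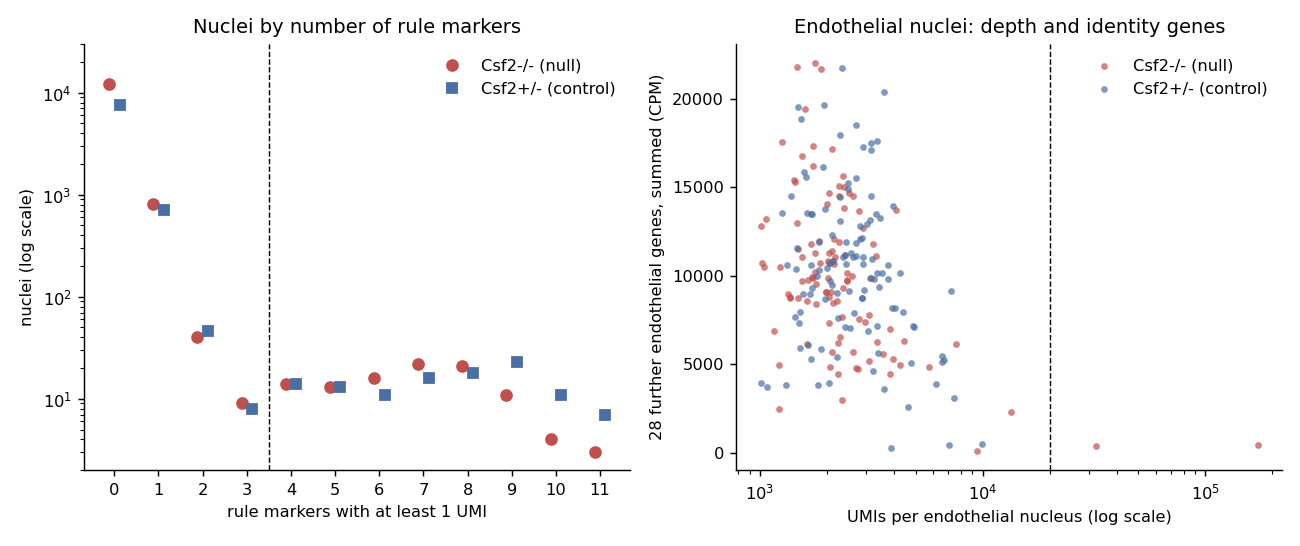
Left, the number of nuclei (log scale) by how many of the 11 rule markers had a UMI, with the null library as circles and the control as squares; the dashed line is the limit of 4 markers, and few nuclei in either library have 3 (9 null, 8 control). Right, each member's UMIs (log scale) against the summed CPM of 28 further endothelial genes; the 2 null barcodes right of the dashed line at 20000 UMIs lie near 0 on the vertical axis (442 and 370 CPM).

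The number of rule markers per nucleus fell into a large group near 0 and a broad group of 4 to 11. In the null library 12135 nuclei had 0 markers, 808 had 1, 40 had 2 and 9 had 3, while 14 had 4, 22 had 7 and 3 had all 11. In the control library 7507 nuclei had 0, 710 had 1, 46 had 2 and 8 had 3, while 14 had 4, 16 had 7 and 7 had all 11. Just inside the limit, nuclei with 4 markers had a median of 9.5 rule-marker UMIs in the null and 9 in the control library. Just outside it, nuclei with 3 markers had a median of 4 UMIs in both. The 28 further endothelial genes did not separate the sides as clearly: nuclei with 4 markers held 8561 CPM of them in the null and 4084 CPM in the control library, and nuclei with 3 markers 5030 CPM and 2621 CPM. Members held 68.6% of all rule-marker UMIs of the null nuclei and 77.4% of those of the control nuclei.

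Among the rule markers, whose levels are given as a description since they chose the members, Egfl7, which encodes a matrix-bound endothelial factor, was detected in 90 of 102 null and 103 of 113 control members. Flt1, a VEGF receptor gene, had 469 UMIs in 87 null members and 704 UMIs in 99 control members. Kdr, the main VEGF signalling receptor gene, had 93 UMIs in 55 null members and 136 UMIs in 60 control members. Tek, the angiopoietin receptor gene, had a UMI in 31 null members (30.4%) and 59 control members (52.2%), and Cdh5, the gene of VE-cadherin, in 20 (19.6%) and 37 (32.7%). In the other nuclei, those with fewer than 4 rule markers, the share with a UMI was at most 1.32% (Plvap) in the null and 1.38% (Plvap) in the control library for any of the 11 genes. Depth differed between the libraries in the members (medians 2104 null, 2545 control), and its part in the shares with a UMI was not tested.

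The label endothelial was checked on 28 further endothelial genes that the rule did not use. All 28 were more than 2-fold higher in members than in the other nuclei of both libraries, where 14.8% of the 3874 genes with at least 30 UMIs in members were more than 2-fold higher and 4.41% more than 2-fold lower in both. Since the rule chose these nuclei on genes of the same profile, this describes the members and is no test. The 28 genes summed to 9041 CPM in null members and 400 CPM in other null nuclei, a log2 ratio of 4.50, and to 9377 CPM in control members and 475 CPM in other control nuclei, a log2 ratio of 4.30. A member had between 1 and 16 of the 28 genes in the null and between 1 and 18 in the control library, with a median of 10 in each. Under 1000 CPM of these genes were found in 1 null member, of 9444 UMIs, and in 3 control members, of 3868 to 9910 UMIs. These few deep members carried the rule markers but little else of the endothelial profile.

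Markers of other cell types were near or below their level in the other nuclei, except for red blood cell genes in the control library. Neuronal genes had 0 UMIs in null and 3 UMIs in control members, with 7 of 10 genes at 0 in both libraries, among them Elavl4, Alk, Ctnna2 and Snap25. Lymphoid genes had 3 null and 5 control UMIs, with 9 of 11 genes at 0, Cd3e, Cd79a and Ms4a1 included. Pericyte and smooth muscle genes summed to 217 CPM in null members and 200 CPM in other null nuclei, and to 184 CPM in control members and 184 CPM in other control nuclei. Of that list Rgs5, a pericyte gene, was higher in members (16 null and 23 control UMIs), by log2 3.90 in the null and 5.08 in the control library. Fibroblast genes were at 582 CPM in null members and 649 CPM in other null nuclei, with 619 CPM and 778 CPM in the control library. Macrophage genes were at 237 CPM in null members and 268 CPM in other null nuclei, and at 313 CPM and 332 CPM in the control library. At least 3 fibroblast genes were found in 9 null and 6 control members, at least 3 duct genes in 24 and 26, and at least 3 macrophage genes in 0 and 4. Duct genes were lower in members, at 1990 CPM in null members and 5287 CPM in other null nuclei, and at 1947 CPM and 6027 CPM in the control library. Schwann cell genes were at log2 -1.72 in the null and -1.28 in the control library against other nuclei, and myoepithelial genes, with 12 null and 3 control UMIs, at -0.19 and -2.98. Red blood cell genes had 4 UMIs in null members (16.1 CPM, with 10.6 CPM in other null nuclei) and 31 UMIs in control members (95 CPM, with 23.1 CPM in other control nuclei), and 2 control members held at least 3 of them.

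Acinar genes, which the free RNA carries, reached at least 3 genes in 102 of 102 null and 109 of 113 control members and summed to 14988 CPM in null and 5711 CPM in control members. The free RNA held 41906 CPM of them in the null and 11609 CPM in the control library. The paralogs Dcpp1, Dcpp2 and Dcpp3, secretory genes of the gland, made most of that difference. Their log2 ratios of null over control were between 1.85 and 1.95 in members and between 2.13 and 2.30 in the free RNA, and reads may be split between these near-identical copies. Acinar RNA thus differed between the null and control members as it did between the free RNA of the libraries. Whether it came from free RNA or from mixed barcodes was not tested, nor was its part in other genes' ratios beyond the subtraction given with the processing alternatives.

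Beyond the rule markers, 561 of 3863 genes (14.5%) were more than 2-fold higher in members in both libraries. The 20 that stood highest, by the bound of the counting interval in the library where it was lower, are given here. First was Lrrc3b, a leucine-rich repeat gene, with 49 UMIs in 102 null members against 12 UMIs in all other null nuclei (197 and 0.424 CPM), and 56 UMIs in control members against 4 in other control nuclei (172 and 0.157 CPM). Shank3, which encodes a scaffold protein best known from neuronal synapses, had 179 UMIs (718 CPM) in null and 225 UMIs (690 CPM) in control members, with log2 ratios over other nuclei of 8.58 in the null and 8.06 in the control library. Erg, an ETS family transcription factor that maintains endothelial identity, had 67 null and 70 control UMIs (log2 8.37 and 8.25 over other nuclei). Both are in the list of 28, as are Rasip1, Ushbp1, Mecom, Tie1 and Podxl.

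Arhgef15, which encodes a GTPase exchange factor of endothelial cells, was at log2 7.89 over other nuclei in the null and 8.63 in the control library, and Rasip1, a Ras-interacting protein gene needed for vessel lumens, at 7.43 and 7.54. Rasgrf2 was at 7.11 and 6.98 and Rasgrp3, an exchange factor gene downstream of VEGF, at 6.19 and 6.76. Zfp366 (82 null and 126 control UMIs), Ccdc85a (143 and 121), Dysf, a membrane repair gene (134 and 220), Pcdh17, a protocadherin gene (123 and 161), and Nova2, an RNA splicing factor gene (39 and 53), lay between log2 6.73 and 8.46 above other nuclei in both libraries. Exoc3l2 was at 7.48 in the null and 7.53 in the control library, and the caveolar gene Cavin2 at 6.31 and 6.66. Btnl9, a capillary gene, was at 7.31 in the null and 8.26 in the control library, and Mmrn1, a lymphatic gene, at 6.32 and 6.47. Mecom, a transcription factor gene of arterial endothelium, had 317 null and 425 control UMIs at log2 6.54 and 6.56. Of the 20 genes, 19 were also among the highest 20 when all members were summed.

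**Figure D2:**
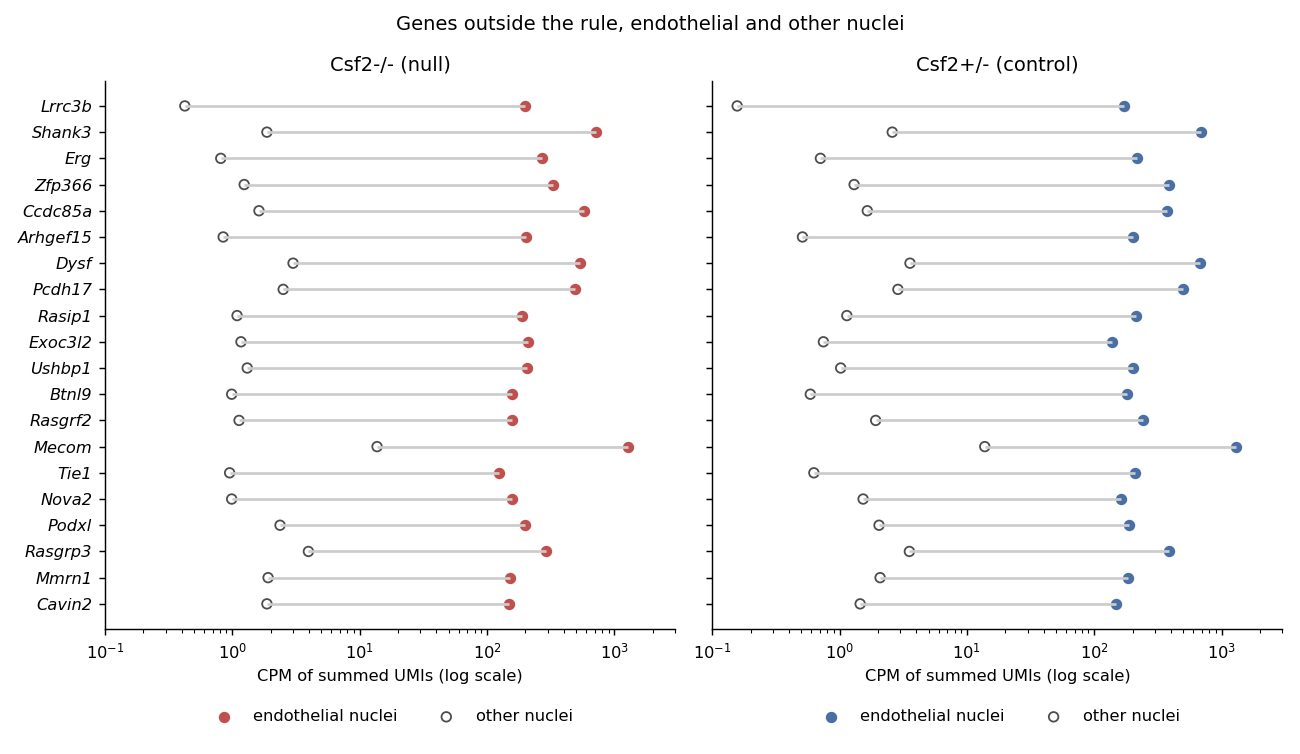
CPM of summed UMIs (log scale) of the 20 genes outside the rule that stood highest in endothelial nuclei (filled) over the other nuclei of the same library under 20000 UMIs (open), null left and control right. For Lrrc3b the members are at 197 CPM in the null and 172 CPM in the control library, and the other nuclei below 1 CPM in both.

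The promoters of the first 4 of these genes that the RefSeq promoter table (build GRCm38.p6) holds are printed to show the sequence around the starts of the genes most particular in level to these nuclei. Of the 20 genes 17 had an entry. Each runs from 250 bases before to 50 after the first listed start, 5' to 3' on the gene's own strand, and Erg has 3 listed starts. Capitals mark the letters GGAA, the core that ETS factors such as Erg bind, or TTCC, the same core on the opposite strand.
Lrrc3b, chr14:15438938-15439237, minus strand: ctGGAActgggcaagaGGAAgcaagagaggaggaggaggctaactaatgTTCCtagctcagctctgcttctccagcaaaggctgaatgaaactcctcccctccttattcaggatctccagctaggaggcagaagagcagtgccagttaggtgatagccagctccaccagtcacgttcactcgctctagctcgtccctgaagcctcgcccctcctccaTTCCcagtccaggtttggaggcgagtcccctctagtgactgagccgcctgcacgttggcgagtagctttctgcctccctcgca
Shank3, chr15:89499358-89499657, plus strand: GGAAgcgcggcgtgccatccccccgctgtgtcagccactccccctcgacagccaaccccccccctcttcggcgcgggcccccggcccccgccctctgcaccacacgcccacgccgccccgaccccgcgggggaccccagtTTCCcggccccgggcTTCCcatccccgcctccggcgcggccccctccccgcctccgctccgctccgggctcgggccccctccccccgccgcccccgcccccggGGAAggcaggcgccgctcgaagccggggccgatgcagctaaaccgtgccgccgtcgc
Erg, chr16:95586544-95586843, minus strand: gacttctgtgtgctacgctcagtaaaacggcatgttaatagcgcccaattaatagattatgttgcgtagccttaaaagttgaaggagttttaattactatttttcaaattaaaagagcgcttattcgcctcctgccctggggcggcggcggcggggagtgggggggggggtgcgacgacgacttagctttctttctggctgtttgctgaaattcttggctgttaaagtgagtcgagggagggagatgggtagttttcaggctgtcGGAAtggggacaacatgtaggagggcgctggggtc
Ccdc85a, chr11:28584275-28584574, minus strand: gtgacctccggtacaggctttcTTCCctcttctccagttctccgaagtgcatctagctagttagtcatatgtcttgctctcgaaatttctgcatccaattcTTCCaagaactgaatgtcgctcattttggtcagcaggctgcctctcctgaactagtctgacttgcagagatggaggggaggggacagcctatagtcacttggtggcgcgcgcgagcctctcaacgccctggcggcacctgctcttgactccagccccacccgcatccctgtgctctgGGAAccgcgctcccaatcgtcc
The core stood 4 times in the Lrrc3b, 4 times in the Shank3, 1 time in the Erg and 3 times in the Ccdc85a promoter. It is short and was found in 15 of the 17 promoters and in 95.9% of all 27025 promoters of the table. Longer forms were searched on both strands too, and none of the 4 windows held one. GGAAGT, which contains the core, was in 5 of the 17 (29.4%) and in 24.1% of all promoters. CCGGAA, which also contains it, was in 2 of the 17 (11.8%) and in 15.2% of all. The SOX letters ACAAAG were in 2 of 17 and in 18.7% of all promoters, and the GATA letters AGATAA in 1 of 17 and in 11.4% of all. These are matches of letters and say nothing of binding.

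Members made up 0.794% of null nuclei (104 of 13096, exact binomial 95% interval 0.649 to 0.961) and 1.35% of control nuclei (113 of 8384, 1.11 to 1.62), a log2 ratio of -0.76 (exact conditional binomial 95% interval -1.16 to -0.37). With each nucleus thinned to 1000 UMIs and the median of 21 draws taken, 79 null and 87 control nuclei still met the rule, a log2 ratio of -0.78 (-1.24 to -0.33). The ratio depended on the denominator. Barcodes of at least 1000 UMIs that were not taken as nuclei for their secretory share numbered 4572 in the null and 11015 in the control library. Of all barcodes, members were 0.14% in the null and 0.165% in the control library (-0.24, -0.64 to 0.16). Of barcodes with at least 1000 UMIs, a denominator added after seeing the data, the log2 ratio was 0.02 (-0.38 to 0.41). The numbers of members themselves, 104 and 113, were close, and no direction for endothelial abundance can be read from these shares.

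The members varied among themselves along the vessel tree. A member was put in a class if it had at least 2 genes of a list of arterial, venous, capillary, tip-cell or lymphatic genes, so a nucleus could be in several classes. Capillary genes (among them Rgcc, Fabp4, Cd36, Cd300lg and Btnl9) marked 75 of 102 null members (73.5%) and 90 of 113 control members (79.6%). Arterial genes (among them Sox17, Efnb2, Jag1, Vegfc and Nebl) marked 25 null (24.5%, 16.5 to 34) and 36 control members (31.9%, 23.4 to 41.3). Venous genes marked 19 null (18.6%) and 34 control members (30.1%), tip-cell genes 14 (13.7%) and 28 (24.8%), and lymphatic genes 9 (8.82%) and 9 (7.96%). No list reached 2 genes in 7 null and 7 control members.

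At equal depth the venous and tip-cell shares were closer, while the arterial shares were not. Thinned to 1000 UMIs, arterial genes marked 13.7% of null and 19.5% of control members, venous genes 7.84% and 7.08%, capillary genes 46.1% and 48.7%, tip-cell genes 4.90% and 5.31%, and lymphatic genes 7.84% and 7.96%. With the 2 deep barcodes kept, the thinned arterial shares gave a log2 ratio of -0.53 (-1.61 to 0.50). In thinned nuclei without any rule marker (median 1995 UMIs in the null and 2811 in the control library before thinning), each list marked at most 1.20% of null and 1.49% of control nuclei, both for the venous list. Before thinning the log2 ratios of null over control were -0.38 for arteries (-1.18 to 0.40), -0.69 for veins (-1.58 to 0.16), -0.12 for capillaries (-0.58 to 0.34), -0.85 for tip cells (-1.89 to 0.12) and 0.15 for lymphatics (-1.36 to 1.66). Every one of these 5 intervals includes 0, so at this number of nuclei no difference in vessel makeup was detectable. Over members under 20000 UMIs, list genes were lower in the null more often than higher: 5 of 6 measured arterial genes (median log2 ratio -0.49), 4 of 5 venous (-0.22), 5 of 7 capillary (-0.17) and 5 of 6 lymphatic genes (-0.21), where the median of all genes was -0.05. Of these only Vegfc was past 2-fold. With the 2 deep barcodes, over all members, the medians were -1.15 for arterial, -0.87 for venous, -0.82 for capillary and -1.07 for lymphatic genes.

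**Figure D3:**
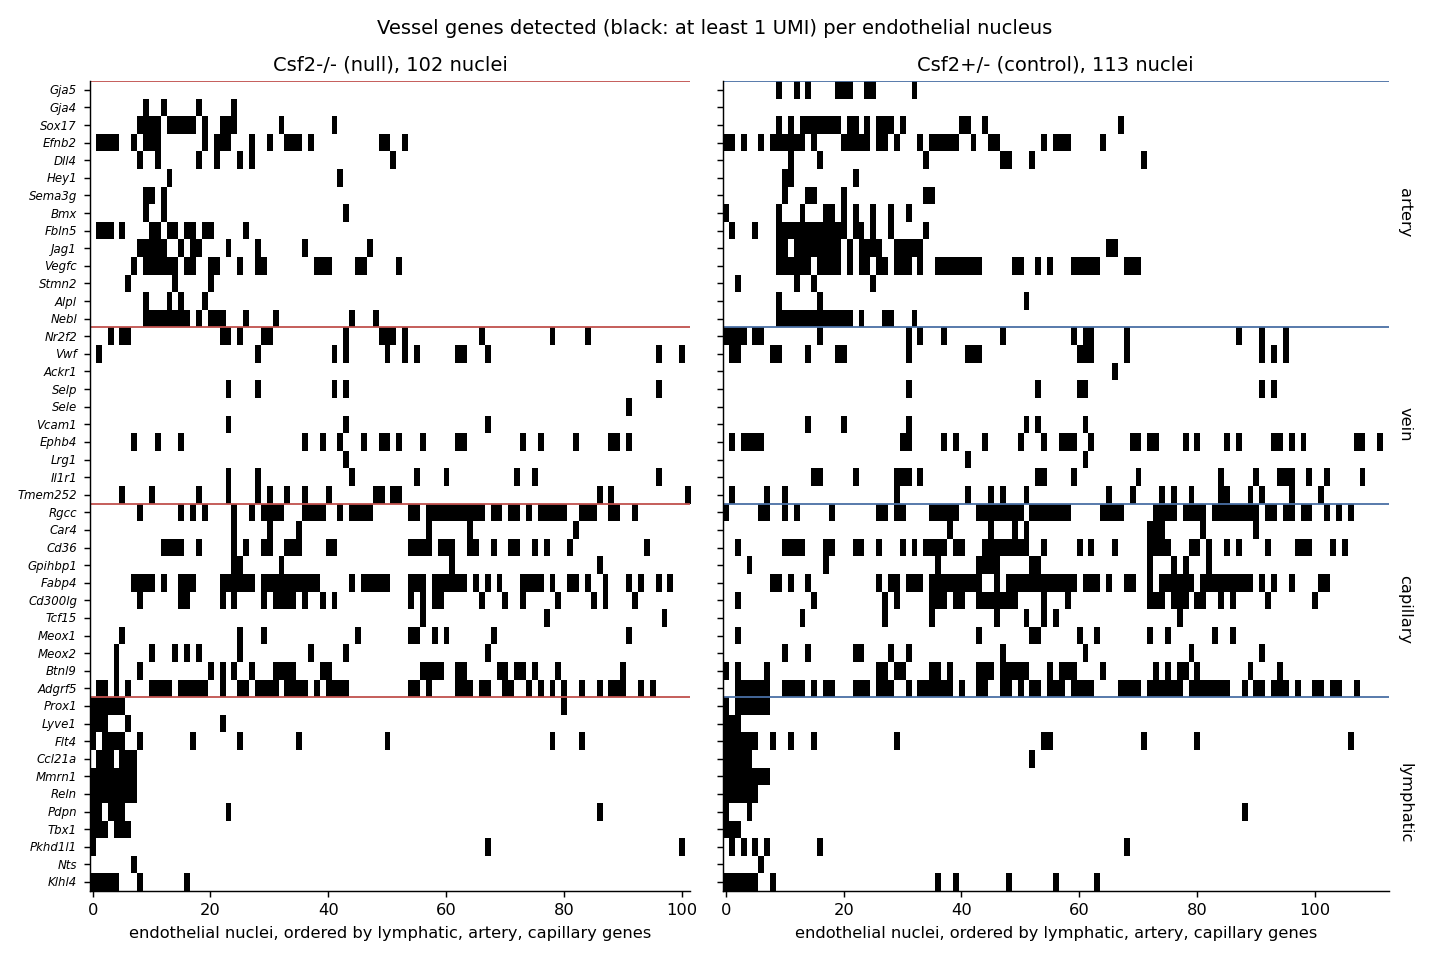
Each column is 1 endothelial nucleus (102 null left, 113 control right) and each row a vessel gene, with black where the gene had at least 1 UMI. Nuclei are ordered by lymphatic, then arterial, then capillary genes. The lymphatic block at the lower left holds 9 nuclei in each library (8 with at least 3 lymphatic genes) and is sparse elsewhere. At least 2 genes of both the arterial and the capillary list are found in 15 null and 26 control nuclei.

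The lymphatic class was the most separate, so the label vascular covers nuclei of lymphatic as well as blood vessels. At least 3 lymphatic genes were found in 8 of its 9 nuclei in each library. The remaining nucleus of each library had only Flt4 and Klhl4 of the list. The null one had 1 UMI of each, but 7 of Rgcc, 4 of Fabp4 and 2 of Btnl9, which are capillary genes. Its place in the lymphatic class thus rests on little. Mmrn1 had 38 UMIs in the 9 null members of the class and 0 in the other 93 members. In the control library it had 60 UMIs in the 9 members of the class and 0 in the others. Reln, which encodes a secreted glycoprotein of lymphatic endothelium, had all its 58 null and all its 50 control UMIs in the class. Prox1, the transcription factor that sets lymphatic identity, had 28 of 29 null and 42 of 42 control UMIs there. These 3 genes belong to the list that defined the class and are a description. Genes outside the list were picked for standing high in the class in both libraries, so they are a description too. Among them Scn3a, a sodium channel gene, had 34 null and 26 control UMIs, all in the class. Wdr17 had 12 of 14 null and 21 of 22 control UMIs there, Pcsk6, a proprotein convertase gene, 11 of 13 and 17 of 18, and Sema3d, a semaphorin gene, 10 of 13 and 28 of 30. Among the rule markers, Flt1 and Emcn were sparse in the class. Flt1 had 9 of 469 null and 5 of 704 control UMIs in it, and Emcn, a sialomucin gene of veins and capillaries, 4 of 253 and 1 of 389. Each nucleus of the class had at least 4 rule markers, since these chose the members, so these values are a description too.

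The arterial class was led, outside its own list, by Pcsk5, another proprotein convertase gene, with 36 of 40 null and 75 of 80 control UMIs in the class. Prdm16, a transcription factor gene of arterial endothelium, had 17 of 18 null and 43 of 46 control UMIs there, and Col8a1, a collagen gene of vessel walls, 11 of 13 and 30 of 31. Edn1, which encodes the vasoconstrictor endothelin 1, had 5 of 5 null and 27 of 28 control UMIs in it. The class shared 15 null and 26 control nuclei with the capillary class. It also shared 5 null and 2 control nuclei with the lymphatic class. The venous class was led by Thsd7a (51 UMIs inside and 23 outside in the null, 77 and 44 in the control library) and Slco2a1, a prostaglandin transporter gene (17 and 9 null, 29 and 14 control). Of the venous nuclei, 5 of 34 control and 1 of 19 null were in the lymphatic class too. The capillary class was led by Pcdh17 (108 inside and 15 outside in the null, 151 and 10 in the control library) and by Nrp1, a VEGF co-receptor gene (266 and 48 null, 330 and 26 control).

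Between genotypes, 3874 genes had at least 30 UMIs over members under 20000 UMIs and were called measured. Of these, 84 (2.17%) were more than 2-fold higher and 118 (3.05%) more than 2-fold lower in null members, 5.21% in all. Their median log2 ratio of CPM, null over control, was -0.05. Over all members, which adds the 2 deep null barcodes, 4912 genes were measured, and 255 (5.19%) were more than 2-fold higher and 304 (6.19%) more than 2-fold lower, 11.4% in all. Leaving out those 2 barcodes thus brought the counts down more than 1.5 times. With the free RNA subtracted 54.7% of the calls were higher in the null, against 41.6% without subtraction, and over all members 59.6% against 45.6% (60.3% with the 100 most abundant free-RNA genes left out of the totals).

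The endothelial profile itself was close in the null and control libraries. Of the 28 identity genes 24 were measured, 11 higher and 13 lower in null members, with a median log2 ratio of -0.06, next to -0.05 for all genes. Over all members the median was -0.87 and 23 of 24 were lower, the value that the 2 deep barcodes set. Arhgap31, a GTPase-activating protein gene, had 341 UMIs (1368 CPM) in null and 472 UMIs (1447 CPM) in control members, at -0.08. Mecom was at -0.03 (317 null and 425 control UMIs) and Prex2 at 0.17 (201 and 234). Ldb2, a LIM-domain cofactor gene, had 304 UMIs in null and 484 in control members, at -0.28 (-0.49 to -0.07). Past 2-fold were Clec14a, an endothelial lectin gene, with 29 UMIs in null and 18 in control members (1.08, 0.18 to 2.01), and Nos3, the endothelial nitric oxide synthase gene, with 11 and 31 (-1.11, -2.25 to -0.07).

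Of 16 measured genes of the endothelial transcription factor list, which also holds the receptor gene Heg1, 4 were higher and 12 lower in null members, with a median of -0.20. Tal1, a blood and endothelial regulator, had 8 UMIs (32.1 CPM) in null and 33 UMIs (101 CPM) in control members, a log2 ratio of -1.66 (-2.98 to -0.51), with 6 of the control UMIs in 1 nucleus. In the other nuclei Tal1 was at -0.35. Foxc1 had 9 UMIs in null and 25 in control members (-1.09, -2.37 to 0.06). Erg was at 0.33 (67 null, 70 control UMIs), Fli1, another ETS factor gene, at 0.19 (172 and 197) and Elk3 at -0.33 (123 and 203). Heg1, a receptor gene of the junction-stabilising CCM pathway, had 112 UMIs in null and 234 in control members (-0.67, -1.01 to -0.34).

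Among growth factor systems, the VEGF list had 4 measured genes higher and 4 lower, with a median of 0.00. Its ligand Vegfc, which acts on lymphatic and arterial cells, had 38 UMIs (152 CPM) in null and 106 UMIs (325 CPM) in control members, a log2 ratio of -1.09 (-1.67 to -0.54). It was at -0.53 in other nuclei and at -0.96 in the free RNA, and at -1.88 over all members. The co-receptor genes Nrp1 (314 null and 356 control UMIs, 0.21) and Nrp2 (89 and 126, -0.11) and the adaptor gene Gab1 (79 and 98, 0.08) lay near 0. Of the angiopoietin list 3 genes were measured, 1 higher and 2 lower. Tie1, the partner receptor of Tek, had 31 UMIs in null and 68 in control members (-0.74, -1.41 to -0.11), and Foxo1 was at -0.22 and Pik3r1 at 0.03.

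The Notch list had 2 of 5 measured genes higher and 3 lower, with a median of -0.79, which was -0.37 over 10 genes at a minimum of 10 UMIs. The receptor gene Notch1 had 7 UMIs, 1 in each of 7 null members, against 27 UMIs in 25 control members (-1.56, -3.00 to -0.32). Rbpj, the nuclear effector, had 18 UMIs in null and 47 in control members (-1.0, -1.87 to -0.19) and the ligand gene Jag1 15 and 34 (-0.79, -1.77 to 0.12). The ligand gene Jag2 was at 0.24 (18 and 20), and the target gene Hes1 had 25 UMIs in null and 16 in control members (1.03, 0.07 to 2.04), while it was at 0.49 in other nuclei and 0.51 in the free RNA. Receptor and target thus lay on opposite sides of 0. The BMP and TGF-beta list had 7 measured genes higher and 5 lower (median 0.06). Its receptor gene Acvrl1 had 25 UMIs in null and 16 in control members (1.03, 0.07 to 2.04), its co-receptor gene Eng 105 and 119 (0.21), and Smad1 39 and 65 (-0.35).

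Of 12 measured junction genes 2 were higher and 10 lower, with a median of -0.42. Ctnnd1, which encodes p120-catenin of adherens junctions, had 6 UMIs in null and 25 in control members (-1.67, -3.25 to -0.35) and was at -0.43 in other nuclei. The scaffold genes Magi1 (391 null and 514 control UMIs, -0.01), Afdn (117 and 175, -0.19) and Tjp1 (55 and 96, -0.42) and the alpha-catenin gene Ctnna1 (71 and 83, 0.16) were within 2-fold. Genes of leukocyte entry were hardly measured: of 11 only Cd34 (31 null and 36 control UMIs, 0.17), Podxl (49 and 61, 0.07) and F11r (22 and 48, -0.74) had 30 UMIs, and Glycam1 and Madcam1 of lymph node venules were at 0. The transport list had 6 measured genes higher and 5 lower, none past 2-fold (median 0.01). The fatty acid binding protein gene Fabp4 had 114 UMIs in null and 125 in control members (0.26) and the caveolin gene Cav1 87 and 143 (-0.33).

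Guidance genes, which steer vessel growth, had 4 of 15 measured members higher and 11 lower (median -0.32). The secreted ligand gene Slit2 had 42 UMIs in null and 121 in control members (-1.14, -1.68 to -0.62), but 33 of the control and 13 of the null UMIs lay in 1 nucleus each, and Slit2 was at -0.73 in other nuclei and -1.27 in the free RNA. Sema6a had 159 UMIs in null and 281 in control members (-0.43, -0.72 to -0.15), and the plexin receptor gene Plxna2 125 and 142 (0.20). Basement membrane genes had 5 of 14 measured higher and 9 lower (median -0.32), none past 2-fold. The collagen IV gene Col4a1 (167 null and 292 control UMIs, -0.42, -0.70 to -0.14) was lower, and Col4a2 (118 and 188) was at -0.28. The integrin gene Itga1 (99 and 101) was at 0.36 and Itga6 (131 and 166) at 0.05. Without the nucleus with the most UMIs in each library, the intervals of Col4a2 (-0.67 to 0.03), Itga1 (-0.05 to 0.81) and Itga6 (-0.23 to 0.47) included 0.

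Genes of flow and vessel tone had 3 of 11 measured members higher and 8 lower, with a median of -0.21. Past 2-fold were 3, all lower: Edn1, Nos3 and Ednrb. Of all 3874 measured genes, 3.05% were more than 2-fold lower and 2.17% more than 2-fold higher. The list was chosen with earlier results of these data known, and Edn1 is also among the genes picked below as furthest apart, so this count is a description. Edn1 had 5 UMIs in 3 null members and 28 UMIs in 8 control members (-2.10, -3.83 to -0.71), of which 8 lay in 1 nucleus. Ednrb, the endothelin receptor of endothelial cells, had 9 UMIs in 6 null and 27 UMIs in 15 control members (-1.20, -2.47 to -0.07). Nos3 was found in 11 null and 24 control members. Without the nucleus with the most UMIs in each library Edn1 was at -2.35, Ednrb at -1.49 and Nos3 at -1.0 (-2.22 to 0.10). Klf2, the transcription factor that shear stress induces, had 38 UMIs (152 CPM) in null and 96 UMIs (294 CPM) in control members (-0.95, -1.53 to -0.39), Klf4 34 and 49 (-0.14), the mechanosensitive channel gene Piezo1 33 and 50 (-0.21), and Calcrl, a receptor gene for adrenomedullin, 64 and 117 (-0.48, -0.94 to -0.03). In other nuclei Calcrl was at -0.98 and Klf2 at -0.17.

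Of the factors that endothelial cells give to their neighbours, 6 of 20 were measured, 4 higher and 2 lower, with a median of 0.02 and none past 2-fold. Pdgfd had 192 UMIs in null and 248 in control members (0.02), Kitl, the Kit ligand gene, 104 and 161 (-0.24), Pdgfb, which recruits pericytes, 45 and 50 (0.24), and the chemokine gene Cxcl12 38 and 41 (0.28). Csf2, Csf3, Tslp, Ccl2 and Wnt2 had 0 UMIs in the members of both libraries. The GM-CSF receptor genes were nearly absent: Csf2ra had 1 UMI in null and 3 in control members, Csf2rb 1 and 1, and Csf2rb2 0 and 0. Downstream, Jak2 (21 null and 24 control UMIs, 0.20), Stat5b (48 and 57, 0.14) and Socs2 (27 and 31, 0.19) were measured, all within counting error of 0.

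Among the remaining lists, the insulin and FoxO list had 3 of 7 measured genes higher and 4 lower. Ppargc1a, a metabolic coactivator gene, had 31 UMIs in null and 95 in control members (-1.23, -1.86 to -0.63), and Irs2, an insulin receptor substrate gene, 10 and 30 (-1.20, -2.39 to -0.12). Both were also lower in the other nuclei (-1.56 and -1.42) and in the free RNA (-1.75 and -1.42). The immediate early gene Nr4a1 had 18 UMIs in null and 49 in control members (-1.06) and was at -0.65 in other nuclei and -0.81 in the free RNA, while Nr4a2 had 57 and 56 (0.41). Of the 18 cell cycle genes 2 were measured: Top2a, a topoisomerase gene of dividing cells, with 29 UMIs in 12 null and 16 UMIs in 11 control members (1.25, 0.32 to 2.23), and Diaph3 with 14 and 23 (-0.33). At a minimum of 10 UMIs 11 of the list were measured, 10 higher and 1 lower in the null, with a median of 0.65, next to -0.05 for all genes at that minimum. With the 2 deep barcodes kept, 12 were measured at that minimum, 6 higher and 6 lower, with a median of 0.10. Of 5 measured MHC and interferon genes 4 were lower, none past 2-fold, with H2-K1 at -0.26 (48 null, 75 control UMIs) and B2m at 0.26 (44 and 48).

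The 2 deep null barcodes moved these lists as well. Over all members the median was -0.92 for transcription factor, -0.42 for VEGF, -0.22 for angiopoietin, -0.41 for Notch and -0.38 for BMP and TGF-beta genes. It was -0.65 for junction, -0.76 for leukocyte entry, -0.54 for transport, -0.81 for guidance, -0.94 for basement membrane and -0.92 for flow and tone genes. It was -0.63 for factors given to neighbours, 0.16 for GM-CSF signalling, -0.04 for insulin and FoxO, -0.36 for immediate early, 0.37 for cell cycle and -0.51 for MHC and interferon genes, where the median of all genes was -0.03. Genes past 2-fold that lay within it over all members were Clec14a (0.21), Acvrl1 (0.17), Foxc1 (-0.36), Top2a (0.69), Slit2 (-0.81), Nr4a1 (-0.36), Ppargc1a (-0.71) and Irs2 (-0.21).

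The genes furthest apart between the genotypes were ranked by how far their counting interval stayed from 0, and the 12 highest and 11 of the 12 lowest are given. On the higher side Slc41a1, a magnesium transporter gene, had 27 UMIs (108 CPM) in null and 8 UMIs (24.5 CPM) in control members, a log2 ratio of 2.14 (0.97 to 3.49), with 10 of the null UMIs in 1 nucleus. H2aj, a histone variant gene, had 44 UMIs in 36 null and 18 UMIs in 15 control members (1.68, 0.86 to 2.56), and was at 0.64 in other nuclei and 0.78 in the free RNA. Fkbp11, a chaperone gene of secretory cells, had 29 UMIs in 22 null and 10 UMIs in 9 control members (1.92, 0.85 to 3.13). Iigp1, an interferon-induced GTPase gene, was the 1 named higher gene that members held more than 2-fold above other nuclei in both libraries (log2 3.93 null, 2.41 control), with 31 UMIs in 18 null and 14 UMIs in 12 control members (1.54, 0.58 to 2.56). Over all members it was at 0.72 (-0.23 to 1.74), and Mgrn1, given next, at 0.98.

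The other higher genes were Ror1, a Wnt receptor gene (54 UMIs in null and 24 in control members, 1.56), Arhgef10l (37 and 17, 1.51), the DNA repair gene Rad51b (35 and 16, 1.52), Lsamp (69 and 39, 1.21), Dennd2d (38 and 18, 1.47), the ubiquitin ligase gene Mgrn1 (32 and 15, 1.48), the zinc finger gene Bnc2 (22 and 9, 1.68) and the splicing factor gene Srrm2 (211 and 158, 0.81). In control members all 8 were below their level in the other nuclei. For Lsamp, 18 of the null UMIs lay in 1 nucleus, and its ratio was -0.02 without members that held 3 or more genes of another cell type. Dennd2d was at 1.12 in other nuclei and 0.61 without those members.

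On the lower side the genes split by where they are found. Mgp, Pphln1, Edn1, Rasa4 and Eln were more than 2-fold above other nuclei in control members. Mgp, the matrix Gla protein gene that keeps vessel walls from calcifying, had 11 UMIs (44.1 CPM) in 10 null members and 65 UMIs (199 CPM) in 23 control members, a log2 ratio of -2.17 (-3.25 to -1.24), while it was higher in the null in other nuclei (0.63) and in the free RNA (0.69). Eln, the elastin gene, had 40 UMIs (161 CPM) in 27 null and 121 UMIs (371 CPM) in 33 control members (-1.21, -1.76 to -0.68), and was at -0.49 in other nuclei and -0.70 in the free RNA. Rasa4, a Ras GTPase-activating protein gene, had 6 UMIs in 6 null and 31 UMIs in 19 control members (-1.98, -3.53 to -0.70).

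Of the rest, Mtrex, an RNA helicase gene of the nuclear exosome, had 5 UMIs in null and 34 in control members (-2.38), Pphln1, a gene silencing factor gene, 4 and 29 (-2.47), the transcription factor gene Rfx7 18 and 70 (-1.57) and the ephrin ligand gene Efna5 45 and 138 (-1.23). Over all members Rfx7 was at -0.63 and Efna5 at -0.53. Crisp3, a secretory gland gene, had 4 and 28 (-2.42) and was at -1.24 in other nuclei and -1.25 in the free RNA. Csmd1 had 2 UMIs in null and 28 in control members, but 24 of those 28 lay in 1 nucleus, and without the top nucleus of each library its interval included 0 (-1.63, -7.25 to 1.71). Slc35f1 had 6 and 34, 17 of the control UMIs in 1 nucleus. All 23 genes named here lay on the same side of 0 over all members.

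**Figure D4:**
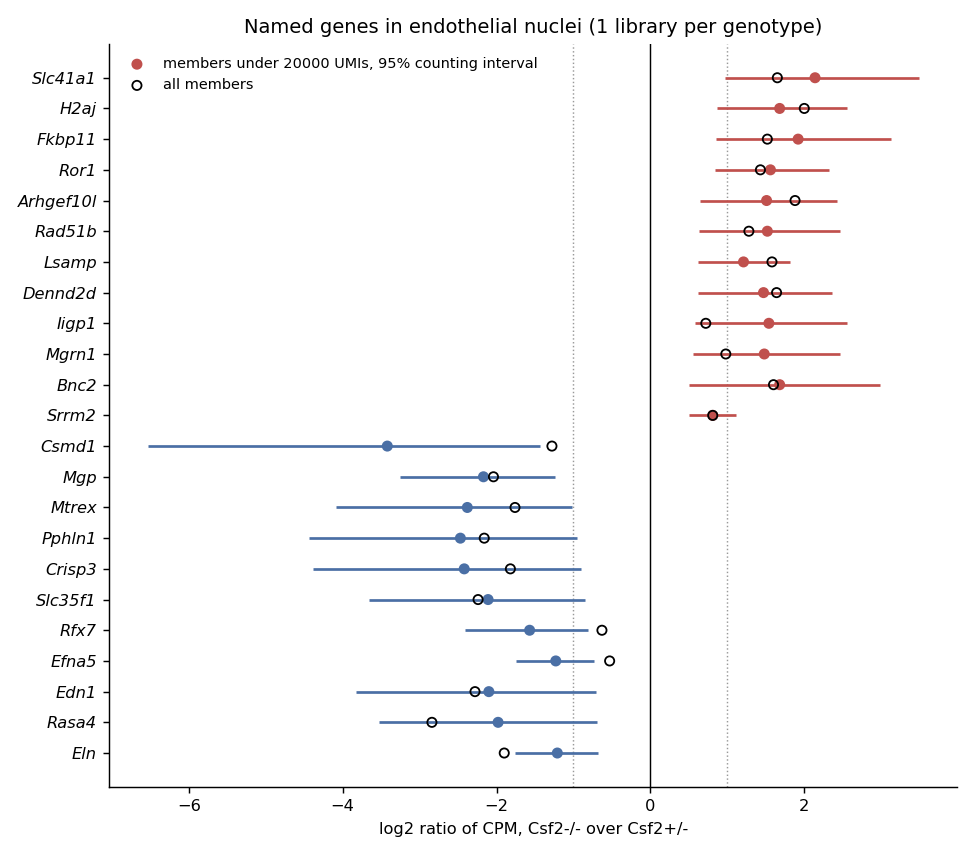
log2 ratio of CPM, null over control, of the 23 genes given here in endothelial nuclei under 20000 UMIs (filled, with the exact 95% counting interval) and in all members (open circles). Dotted lines mark 2-fold; Srrm2 lies inside them at 0.81, and the interval of Csmd1 runs from -6.53 to -1.43.

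Elastin, matrix Gla protein and endothelin 1 are arterial products, and their ratios were set beside the arterial class. Their genes were picked for being lower in these same null members, so their values by class are a description and no test. Inside the class, Mgp had 4 UMIs in 25 null nuclei (61.9 CPM, exact Poisson 95% interval 16.9 to 159) and 53 UMIs in 36 control nuclei (480 CPM, 360 to 628), a log2 ratio of -2.96 (-4.88 to -1.51). Outside it, Mgp had 7 UMIs in null and 12 in control members (-0.55, -2.14 to 0.91). Eln had 21 UMIs (325 CPM, 201 to 497) inside the class in the null and 99 UMIs (897 CPM, 729 to 1092) in the control library (-1.46, -2.22 to -0.77), and 19 and 22 UMIs outside (0.01, -0.95 to 0.97). Edn1 had 5 null and 27 control UMIs inside (-1.66, -3.39 to -0.26) and 0 and 1 outside. Vegfc, which belongs to the list that defined the class, had 27 null and 80 control UMIs inside (-0.79, -1.48 to -0.15) and 11 and 26 outside (-1.02, -2.18 to 0.05).

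How alike the null and control arterial classes were was not tested. Of the genes that defined the class, Sox17 had 17 null and 27 control UMIs inside (0.11, -0.86 to 1.03). Others went either way, with Bmx lower and Nebl higher in the null class. Pcsk5, outside the list, was at 557 CPM in the null (390 to 772) and 680 CPM in the control library (535 to 852). It was picked for standing highest in the class in both libraries, so its levels are a description. Lymphatic genes were more frequent in the null class: Reln had 28 null and 14 control UMIs in it and Prox1 13 and 6. Without nuclei of the lymphatic class, 20 null and 34 control arterial nuclei remained, and Mgp was at -2.73 (-4.66 to -1.29), Eln at -1.31 (-2.09 to -0.61), Edn1 at -1.47 (-3.20 to -0.07) and Vegfc at -0.66 (-1.35 to 0.00). Gja5, the gene of the arterial gap junction protein connexin 40, was picked after its values were seen. It had 0 UMIs in null members and 15 UMIs in 9 control members, at least 3.82-fold lower against a floor of 3 counts over all null members. Gja5 lies under the minimum of 30 UMIs, and 5 of its 15 UMIs were in 1 nucleus. The smooth muscle and pericyte list, whose cells also make Mgp and Eln, was at 217 CPM in null and 184 CPM in control members, with Myh11 at 4 null and 3 control UMIs and Acta2 at 8 and 6.

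**Figure D5:**
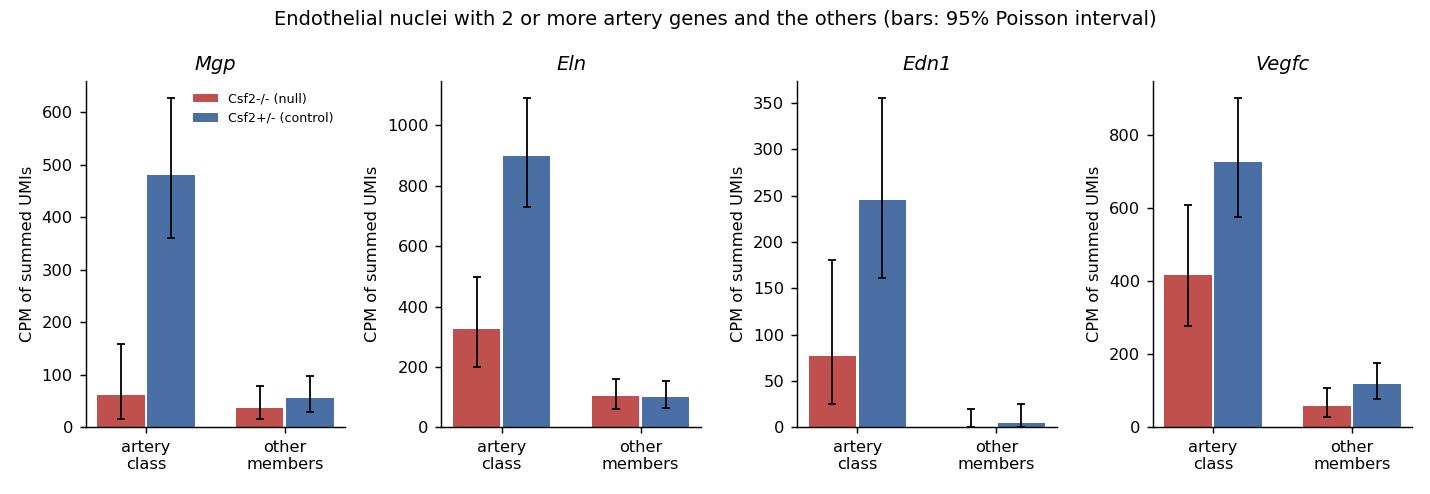
CPM of summed UMIs of Mgp, Eln, Edn1 and Vegfc in endothelial nuclei with 2 or more arterial genes (25 null, 36 control) and in the other members, null left of control; lines are exact 95% Poisson intervals. Mgp and Eln are lower in the null inside the class (61.9 against 480 CPM and 325 against 897 CPM) and overlap outside it.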

How the data were processed

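Single nuclei of salivary glands were profiled with droplet 3' chemistry (10x Chromium, kit v2 per the labels), 1 library per genotype. The deposited values are raw UMI counts per gene and barcode, made by the authors with Cell Ranger 7.0.0 on build GRCm39, per the file headers and the submitters' processing notes; the annotation, the counting of introns and the choice of barcodes are not given in the sources used here. With 74339 null and 68460 control barcodes for 26033 gene identifiers, the files also hold barcodes of free RNA.

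Nuclei and members were chosen by the rule in the report. The members and gene lists were chosen with earlier results of these data known. UMIs were summed per library and gene and scaled to CPM. Ratios are null over control, or members over other nuclei, with exact conditional binomial 95% intervals; shares have exact Clopper-Pearson intervals and CPM exact Poisson intervals, all for counting error only. A gene was called past 2-fold with at least 30 UMIs over both libraries. No test was possible with 1 library per genotype. The interval code was checked on simulated data. Free RNA is the sum of barcodes under 1000 UMIs with at least 27% secretory UMIs. Thinning drew 1000 UMIs per nucleus, 21 times. Zero counts were bounded with a floor of 3 counts.

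Named between genotypes were the 12 highest and 12 lowest genes whose interval lay furthest from 0, without mitochondrial, ribosomal, hemoglobin, sex-linked marker, predicted and rule genes and the 100 most abundant free-RNA genes (1 of the 12 lowest is not reported here); against other nuclei, the 20 highest outside the rule; from each list, genes past 2-fold and up to 4 with the most UMIs. No doublets were removed: the caller in Scanpy 1.11.5 (Scrublet) marked 267 control nuclei (3.18%), 6 of them members, but 9 of 13096 null nuclei (0.0687%), too few to have worked there. The scripts ran under Python 3.11.15; intervals came from SciPy 1.17.1, sums from pandas 2.3.3 with NumPy 2.4.6, and figures from Matplotlib 3.10.9. Promoters are from RefSeq on build GRCm38.p6 and were matched by symbol, not by coordinates.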

Additional observations from a re-analysis of the deposited data

Results flagged for a closer look

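Endothelial signal was found in barcodes that the comparisons did not use. Among null barcodes under 1000 UMIs, 11 of 56671 had at least 4 rule markers, with 668 to 994 UMIs each, against 1 of 49061 such control barcodes, with 737 UMIs. With the minimum lowered to 500 UMIs the rule counted 109 null members instead of 104 and 113 control members as before, so the other barcodes here also exceeded the secretory limit. A further 13 of 4572 null and 10 of 11015 control barcodes of at least 1000 UMIs had at least 4 rule markers but were left out for their secretory share.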

How the results depend on the processing

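No paired analysis was possible because each genotype had 1 library. The log2 ratio of the endothelial share (-0.76) was -0.28 with a minimum of 2000 UMIs, -0.34 and -0.01 with secretory limits of 20% and 35%, -0.24 of all barcodes and 0.02, a change of sign, of barcodes of at least 1000 UMIs. For all members, genes past 2-fold (255 higher, 304 lower) were 854 and 768 at a minimum of 10 UMIs, 56 and 88 at 100 UMIs, 1440 and 1527 with no minimum, 46 and 98 without members holding another cell type's genes, 84 and 118 without the 2 deep null barcodes, and 498 higher with free RNA subtracted. Their identity list median (-0.87) was -1.0 with at least 5 rule markers, -0.09 without members holding another cell type's genes and -0.06 without the 2 barcodes. For members under 20000 UMIs (84 higher, 118 lower) the counts were 474 and 607 at 10 UMIs, 10 and 11 at 100 UMIs, 1255 and 1209 with no minimum, 151 higher with free RNA subtracted and 46 higher without members holding another cell type's genes; the identity median (-0.06) was 0.06 at 100 UMIs. Lsamp changed sign, to -0.02, without members holding another cell type's genes. Of 282 values of named genes, 266 stayed within their counting interval and 15 moved beyond it on the same side of 0, among them Csmd1 and Slc35f1 at -0.78 without Scrublet doublets and Mgp at -5.07 with free RNA subtracted. Of list medians, 219 moved by less than the half-width of the counting interval of the list's summed UMIs and 71 by more, among them the Notch median of members under 20000 UMIs (-0.79), at -0.37 with a minimum of 10 UMIs and -1.46 over 2 genes without members holding another cell type's genes, and the cell cycle median (0.46), at 0.89 with at least 5 rule markers. The causes were not tested. The denominator of nuclei with fewer than 3 acinar genes could not give a share (0 of 2 null and 4 of 209 control nuclei). With 102 and 113 nuclei, most gene ratios rest on under 100 UMIs, and lists with few measured genes (leukocyte adhesion, GM-CSF, cell cycle) are limited by depth.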
